A study of Mus musculus with 12 samples.

Results

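The change that CDDO-Im made in livers lacking Nrf2 was measured in 6 of the 12 arrays of the study, the 3 labelled Nrf2 null with CDDO-Im against the 3 labelled Nrf2 null with vehicle, over 18193 genes. The members were chosen by genotype and treatment alone, and no measured value entered the choice. Liver RNA of male mice was hybridised to Affymetrix arrays with 1 biotin-labelled sample each. The Nrf2 null mice carry no functional Nfe2l2, the gene of Nrf2, in the vehicle and the CDDO-Im group alike. CDDO-Im, an imidazolide of a synthetic oleanane triterpenoid, was given by gavage at a dose labelled 30 uM/kg, and livers were taken after 6 hours. The other 6 arrays held wild type livers treated in the same 2 ways. Strain, age and the composition of the vehicle are not given in the sources used here. Whether the 3 arrays of a group stem from different animals is not stated, and p-values therefore reflect only how these samples vary, which may be technical variation. All vehicle titles, and no CDDO-Im title, carry a digit in brackets whose meaning is not stated, so that any effect of what it stands for and the effect of CDDO-Im cannot be told apart.

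Nrf2 is a transcription factor that is held in check by Keap1 and, when released, switches on genes of detoxification and antioxidant defence. CDDO-Im reacts with thiols, among them those of Keap1, and is best known as an activator of Nrf2, while compounds of its class are also known to act on other proteins, including components of NF-kB and STAT signalling. Hepatocytes secrete most plasma proteins. They raise acute phase proteins in response to cytokines of the interleukin-6 family, and fold them in the endoplasmic reticulum (ER) with chaperones whose genes are controlled by the unfolded protein response (UPR).

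The targeted gene was read first. Nfe2l2 (Entrez Gene 18024, chromosome 2) read 4.83, 4.87 and 4.44 with vehicle and 4.78, 4.96 and 4.93 with CDDO-Im in Nrf2 null replicates 1, 2 and 3 (log2 intensity), all below the array medians of 5.77 to 5.83. The 6 wild type arrays read 8.37 to 9.14. Hepatocyte markers had a summed level of 16.84 to 16.92 (log2) on the 6 Nrf2 null arrays, and 1 of 10 was called, Fgb. Pancreatic acinar markers had a summed level of 10.50 to 12.70 with vehicle, the highest in replicate 2, and 10.62 to 10.73 with CDDO-Im, and limma called 0 of 13, with 0 at an unadjusted p under 0.05. Kupffer cell, lymphocyte, stellate cell, cholangiocyte and erythroid markers had 0 of 14, 11, 11, 6 and 5 members called by limma, with 4, 1, 2, 2 and 1 at an unadjusted p under 0.05, and sinusoidal endothelial markers had 1 of 12, Oit3. Vehicle replicate 2 had the lowest summed levels of Kupffer cell, endothelial and stellate cell markers, 11.97, 11.87 and 11.87 (log2). The other Nrf2 null arrays had 12.64 to 12.88, 12.23 to 12.51 and 12.19 to 12.40. Of all 18193 genes tested, 3528 had an unadjusted p under 0.05 by limma. In bulk RNA, fewer cells of a type and less RNA per cell cannot be told apart.

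Between CDDO-Im and vehicle, limma's moderated test called 1074 genes at a Benjamini-Hochberg adjusted p under 0.05, which is 5.9% of those tested. Of these 652 were higher (3.58%) and 422 lower (2.32%). At least a 2-fold difference was reached by 122 of the higher and 112 of the lower genes. For 4194 genes, or 23.1%, the 3 CDDO-Im arrays did not overlap the 3 vehicle arrays, 2111 of them higher (11.6%) and 2083 lower (11.4%). The median difference over all genes was -0.005 (log2). The count depended on single arrays. It was 249 without Nrf2 null vehicle replicate 1, 348 without vehicle replicate 2, 278 without CDDO-Im replicate 2 and 97 without CDDO-Im replicate 3. Without wild type vehicle replicate 3, which enters this comparison only through the shared estimate of the spread, it was 1615.

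Falls were led by Fabp4, a fatty acid carrier of adipocytes and macrophages, and Nnmt, which methylates nicotinamide. Fabp4 read 11.87, 11.94 and 11.37 with vehicle and 6.22, 5.64 and 6.10 with CDDO-Im in replicates 1, 2 and 3, the order used for all values here. The difference was -5.74 ± 0.70 (log2, SE, adjusted p = 0.0041), and the lowest array lay below its median, so the size is uncertain and not given as a fold. A second probe set of Fabp4 differed by -5.25, and the other two, which averaged 4.52 and 5.26, by 0.00 and 0.06. Of the other 8 adipocyte markers limma called 0, with 0 at an unadjusted p under 0.05. Lpl differed by 0.60 and Cidec by -0.35, and Adipoq, the defining hormone of adipocytes, read 4.19 to 4.33, below the median of all 6 arrays with vehicle as with CDDO-Im. The part of adipocyte RNA in the fall of Fabp4 was not tested. Nnmt read 12.21, 12.03 and 11.57 with vehicle and 8.38, 5.74 and 5.52 with CDDO-Im, so that replicate 1 kept an intermediate level.

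Rises were led by Car3, a carbonic anhydrase abundant in liver and fat, and Inmt, which methylates indoleamines. Car3 read 8.01, 7.77 and 8.29 with vehicle and 11.53, 13.42 and 13.38 with CDDO-Im, a difference of 4.75 ± 1.17 (adjusted p = 0.0365) or 27.0-fold. Inmt read 7.35, 6.91 and 8.48 against 10.54, 11.88 and 12.22. The groups did not overlap for either gene, and CDDO-Im replicate 1 again lay nearest the vehicle arrays. This held for 17 of the 20 largest falls and 17 of the 20 largest rises. Without this array all 40 stayed called. Without CDDO-Im replicate 3 only 6 of the 40 did, without vehicle replicate 1 16, without CDDO-Im replicate 2 17, and without vehicle replicate 2 22, and 2 of the rises and 4 of the falls held their call whichever of the 12 arrays was left out. Of 22 further probe sets for 10 of these genes, 17 pointed the same way.

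**Figure D1:**
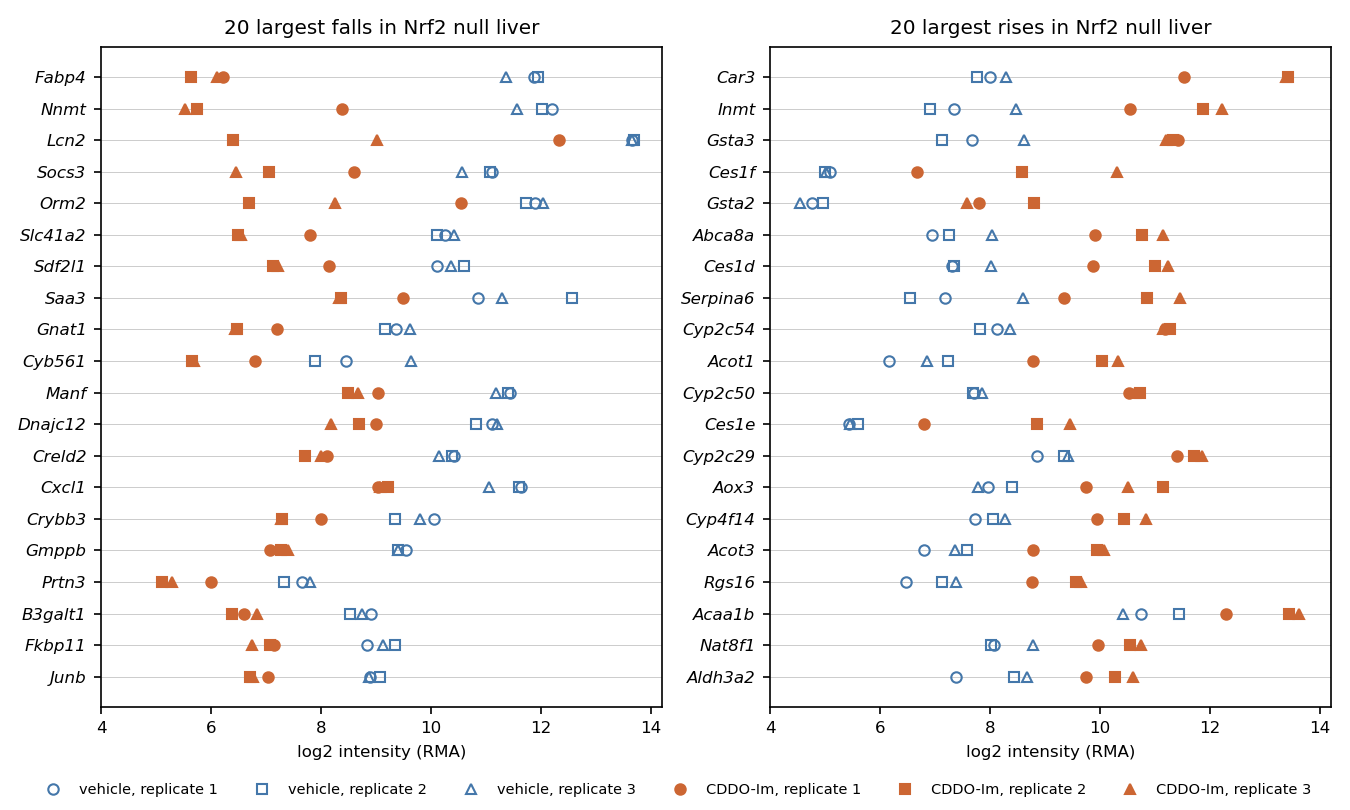
Log2 intensity of the 20 largest falls (left) and 20 largest rises (right) that were called and did not overlap, in the 6 Nrf2 null arrays. Open blue marks are vehicle and filled orange marks CDDO-Im, with circle, square and triangle for replicates 1, 2 and 3. Fabp4 dropped from 11.37 or above to 6.22 or below, and Car3 climbed from at most 8.29 to at least 11.53.

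The secretory pathway was followed through 5 lists. Of their 117 measured genes, which take a protein from entry into the ER to the Golgi, 57 fell (48.7%) and 1 rose, against 2.32% and 3.58% of all genes, and the median difference was -0.64. These 57 made up 13.5% of all falling genes. For 85 of the 117, all CDDO-Im arrays lay below all vehicle arrays, as they did for 11.4% of all genes. The count of falls was 17 without Nrf2 null vehicle replicate 1, 21 without vehicle replicate 2, 18 without CDDO-Im replicate 2 and 10 without CDDO-Im replicate 3.

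Chaperones and foldases, which fold new proteins in the ER lumen, had 20 of 25 members lower, none higher and a median of -1.15. Sdf2l1, a component of the ER chaperone complex, read 10.11, 10.61 and 10.37 with vehicle and 8.14, 7.13 and 7.22 with CDDO-Im, a 7.28-fold fall (-2.86 ± 0.40, adjusted p = 0.0063). Manf, a secreted ER stress protein, read 11.44, 11.41 and 11.18 against 9.03, 8.5 and 8.68, a 6.09-fold fall (-2.61 ± 0.35, adjusted p = 0.0054). Hspa5 (BiP), the main chaperone of the ER lumen, read 12.74, 12.62 and 12.49 against 11.35, 11.16 and 11.26 (-1.36 ± 0.25, adjusted p = 0.0126). In each of these 3 genes the lowest vehicle array lay above the highest CDDO-Im array by more than the spread within either group. Hyou1, a nucleotide exchange factor for BiP, fell by 1.65 ± 0.21 (adjusted p = 0.0043). Creld2 and Fkbp11, a disulfide isomerase and a prolyl isomerase, fell by 2.37 and 2.11, and the BiP co-chaperones Dnajb11, Dnajb9 and Dnajc3 by 1.89, 1.32 and 1.29. The other probe sets of Fkbp11, which averaged 7.45 and 4.81, differed by 0.03 and 0.01, so its fall rests on the chosen probe set. Among the protein disulfide isomerases Pdia6, Pdia4, Pdia3 and P4hb fell by 1.5, 1.16, 1.12 and 0.60. Of the lectin chaperones, calreticulin (Calr) fell by 0.87, while calnexin (Canx) differed by -0.29 and did not pass (adjusted p = 0.16). The calls of Sdf2l1, Manf, Hyou1 and Txndc11 held whichever array was left out, and the number of falling members was 7 without vehicle replicate 1 or 2, 6 without CDDO-Im replicate 2 and 4 without CDDO-Im replicate 3.

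The ER stress element is the motif through which ATF6, with the CCAAT-binding factor NF-Y, is known to raise chaperone genes. It was searched as the letters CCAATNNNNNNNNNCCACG on both strands of the 250 bases before each start in RefSeq's promoters (GRCm38.p6). It was found in 8 of 23 chaperone and foldase promoters (34.8%), in 2 of 16 for ER-associated degradation and in none of the other 3 secretory lists, against 19 of 14452 tested genes with a promoter (0.131%). A match is a description of the letters, not a site or a cause. Of the 10 genes with the element in these lists 8 fell, against 20 of 25 in the whole chaperone and foldase list and 57 of 117 over the 5 lists. The stretches that hold it are shown 5′ to 3′ on the strand of the gene, with the element in capitals. On the reverse strand it reads CGTGG before ATTGG.
Hspa5: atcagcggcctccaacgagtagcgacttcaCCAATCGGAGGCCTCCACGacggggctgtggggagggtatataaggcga
Hsp90b1 distal: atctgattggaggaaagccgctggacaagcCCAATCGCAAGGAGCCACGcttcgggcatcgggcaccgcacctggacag
Hsp90b1 proximal: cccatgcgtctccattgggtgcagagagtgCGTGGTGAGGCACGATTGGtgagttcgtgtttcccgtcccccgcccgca
Calr: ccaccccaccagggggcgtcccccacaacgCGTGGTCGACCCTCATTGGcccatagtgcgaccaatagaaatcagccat
Pdia6: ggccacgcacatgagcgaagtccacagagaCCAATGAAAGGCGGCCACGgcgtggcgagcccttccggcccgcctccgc
Dnajc3: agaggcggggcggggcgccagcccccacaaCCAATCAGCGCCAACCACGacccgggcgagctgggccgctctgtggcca
Creld2: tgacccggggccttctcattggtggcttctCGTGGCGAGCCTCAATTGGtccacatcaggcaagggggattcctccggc
Ero1b: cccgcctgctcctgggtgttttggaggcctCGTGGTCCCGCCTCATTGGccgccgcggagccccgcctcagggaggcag
Syvn1: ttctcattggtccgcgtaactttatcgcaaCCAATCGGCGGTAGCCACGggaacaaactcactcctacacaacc
Canx: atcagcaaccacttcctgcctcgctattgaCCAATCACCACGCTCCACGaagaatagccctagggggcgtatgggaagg
Derl3: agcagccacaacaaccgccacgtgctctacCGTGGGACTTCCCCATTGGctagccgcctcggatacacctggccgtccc

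The stretches on the plus strand are chr2:34771995-34772073 (Hspa5), chr12:17266461-17266539 (Pdia6), chr14:118937797-118937875 (Dnajc3), chr15:88819490-88819568 (Creld2), chr13:12565652-12565730 (Ero1b), chr19:6046502-6046575 (Syvn1) and chr10:75893212-75893290 (Derl3). Those of genes on the minus strand are chr10:86705608-86705686 and chr10:86705503-86705581 (Hsp90b1), chr8:84847045-84847123 (Calr) and chr11:50325770-50325848 (Canx). The element of Hspa5 spans bases -65 to -47 from the start, and that of Syvn1 -44 to -26, while the pair of Hsp90b1 lies at -212 to -194 and -107 to -89. Hsp90b1, the ER paralog of Hsp90, fell by 1.15 and Ero1b, which reoxidises disulfide isomerases, by 0.99. Canx and Derl3, the 2 genes of this set that were not called, differed by -0.29 ± 0.11 and -0.97 ± 0.56. Of the 9 other genes with the element, 1 was called. This gene, Alg12, a mannosyltransferase of N-glycan assembly named after its values were seen, fell by 0.82 ± 0.13 (adjusted p = 0.00879), and its element is the same 19 bases as that of Creld2, at chr15:88819520-88819538, read from the opposite strand.

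Entry into the ER and N-glycosylation had 18 of 25 members lower, none higher and a median of -1.07, and for 24 of the 25 the CDDO-Im arrays all lay below the vehicle arrays, against 11.4% of all genes. Rpn1, a subunit of the oligosaccharyltransferase, read 11.88, 11.81 and 11.68 with vehicle and 10.07, 10.16 and 10.24 with CDDO-Im, a 3.10-fold fall (-1.63 ± 0.26, adjusted p = 0.0094). Its partners Ostc, Ddost, Stt3a, Rpn2, Stt3b and Dad1 fell by 1.42, 1.25, 1.24, 0.79, 0.76 and 0.72. The channel subunits Sec61a1 and Sec61b fell by 1.28 and 1.24, and all 4 subunits of the translocon-associated complex fell, Ssr3 by 1.44, Ssr1 by 1.37, Ssr2 by 1.27 and Ssr4 by 0.82. Among signal peptidase subunits Sec11c, Spcs3 and Spcs2 fell by 1.27, 1.07 and 1.07, while Spcs1 differed by -0.60 (adjusted p = 0.1). Sec62, which serves entry after translation and was the 1 member that read higher, differed by 0.52 (adjusted p = 0.057). None of the 18 promoters of this list held the ER stress element. The number of falling members was 5 without vehicle replicate 1, 8 without vehicle replicate 2, 5 without CDDO-Im replicate 2 and 3 without CDDO-Im replicate 3.

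Transport onward to the Golgi had 10 of 32 members lower, 1 higher and a median of -0.35. Tmed3, a cargo receptor of the p24 family, read 9.45, 9.35 and 9.53 with vehicle and 7.81, 7.61 and 7.86 with CDDO-Im (-1.68 ± 0.21, adjusted p = 0.0041). Its relatives Tmed9 and Tmed10 fell by 1.25 and 0.53, the COPII coat subunits Sec23b and Sec13 by 1.12 and 0.55, and the cargo receptors Surf4 and Lman1 by 0.80 and 0.69. The exception was Sar1b, the GTPase needed for export of large lipoproteins, which rose by 0.63 ± 0.13 (adjusted p = 0.017). The number of falling members was 2, 3 and 4 without vehicle replicates 1, 2 and 3, and 3 and 1 without CDDO-Im replicates 2 and 3.

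Among 16 UPR sensors and transcription factors, which signal ER stress, 5 fell, none rose and the median was -0.08. Xbp1, the transcription factor spliced by Ire1, read 12.79, 12.54 and 12.69 with vehicle and 11.80, 11.67 and 11.54 with CDDO-Im (-1.01 ± 0.15, adjusted p = 0.0071). Creb3l2, a related factor cleaved at the Golgi, fell by 1.34, Wfs1, an ER membrane protein, by 1.2 and the ATF6 relative Atf6b by 0.42. Nucb2, a calcium-binding protein, fell by 1.92 to values below the array medians, so its size is uncertain. Eif2ak3 (PERK) and Ddit3 (CHOP) differed by -0.75 (adjusted p = 0.143) and -0.47 (adjusted p = 0.07). ER-associated degradation, which returns misfolded proteins to the cytosol, had 4 of 19 lower and a median of -0.41: Syvn1, its ubiquitin ligase, fell by 1.11, Selenos by 0.91, Edem2 by 0.74 and Ufd1 by 0.51. No call of this list held without vehicle replicate 1, vehicle replicate 2 or CDDO-Im replicate 3, and the UPR list had 2 to 7 members lower over the arrays left out. The targets of ATF4, the arm that the PERK kinase drives, had 1 of 26 called higher and 1 lower, near the background. For 9 of the 26, however, the CDDO-Im arrays all lay below the vehicle arrays, against 11.4% of all genes. For 1 they all lay above, against 11.6%. The proteasome had 0 of 35 called by limma, with 8 at an unadjusted p under 0.05, against 3528 of all 18193 genes. Atf4 itself fell by 0.45 (adjusted p = 0.0248), and Chac1, a glutathione-degrading target, differed by -1.19 (adjusted p = 0.104).

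**Figure D2:**
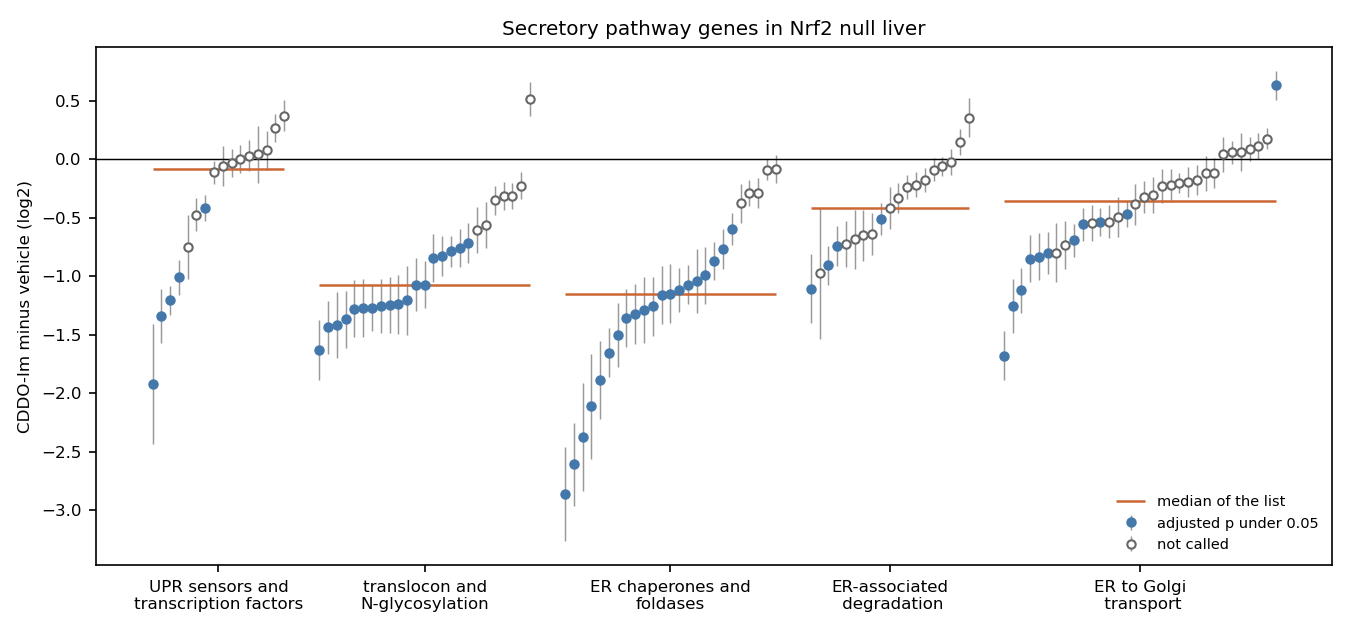
Difference between CDDO-Im and vehicle in Nrf2 null liver (log2) for every measured gene of 5 secretory pathway lists, with bars for the model's standard error. Filled points were called at an adjusted p under 0.05, open points were not, and orange lines are list medians. Chaperones (median -1.15) and the translocon and glycosylation genes (median -1.07) lie lowest, and Sar1b is the 1 called point above 0.

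Cytokine signalling from receptor to feedback inhibitor had 6 of 25 members lower and 2 higher, with a median of -0.28. Socs3, the feedback inhibitor that STAT3 induces, read 11.11, 11.07 and 10.56 with vehicle and 8.60, 7.06 and 6.45 with CDDO-Im, an 11.7-fold fall (-3.55 ± 0.84, adjusted p = 0.032). Its CDDO-Im arrays spread over 2.15 log2 units, and the highest stayed 1.97 below the lowest vehicle array. Among receptors, Osmr for oncostatin M fell by 1.63, Il17ra by 1.17 and Il13ra1 by 0.97. Lifr, the receptor of leukaemia inhibitory factor and partner of gp130, moved the other way, from 9.11, 8.71 and 9.52 to 10.73, 10.44 and 10.81 (1.55 ± 0.20, adjusted p = 0.0043). The other probe sets of Lifr, which averaged 9.59 and 6.46, differed by 0.30 and 0.26, so its rise rests on the chosen probe set. Il1rap, a subunit of the interleukin-1 receptor, rose by 0.97. The transcription factor Cebpd and the NF-kB cofactor Bcl3 fell by 1.14 and 1.10, while Stat3 differed by -0.84 (adjusted p = 0.082). The calls of Socs3, Osmr, Il17ra and Il13ra1 were lost in 5, 9, 9 and 10 of 12 cases in which 1 array was left out, and no member of the list fell without vehicle replicate 2, CDDO-Im replicate 2 or CDDO-Im replicate 3.

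Acute phase proteins, which hepatocytes raise in response to interleukin-6 family cytokines, had 16 of 25 members lower and none higher, with a median of -0.61. For 22 of the 25 the CDDO-Im arrays all lay below the vehicle arrays, against 11.4% of all genes. Saa3, a serum amyloid A protein, read 10.85, 12.56 and 11.30 with vehicle and 9.49, 8.37 and 8.33 with CDDO-Im (-2.84 ± 0.47, adjusted p = 0.0103). Lcn2, which binds bacterial siderophores, read 13.66, 13.70 and 13.66 against 12.33, 6.39 and 9.02 (-4.43 ± 1.17, adjusted p = 0.048). Orm2, an orosomucoid, read 11.89, 11.73 and 12.05 against 10.55, 6.69 and 8.25. The 3 vehicle arrays of Lcn2 and Orm2 were nearly equal, and the CDDO-Im arrays ranged over 5.94 and 3.86 log2 units with replicate 1 highest. Serpina3n and Lbp, the lipopolysaccharide-binding protein, fell by 1.52 and 1.14. The abundant fibrinogen chains Fgb and Fgg fell by 0.46 and 0.40, the latter from 14.10, 13.99 and 14.06 to 13.74, 13.56 and 13.64. Saa2 differed by -2.98 and did not pass (adjusted p = 0.149). Serum amyloids and orosomucoids are near-identical families, so probe sets may share signal between members. The number of falling members was 4 without any 1 of the vehicle arrays, 2 without CDDO-Im replicate 2 and 0 without CDDO-Im replicate 3. It was 16 without CDDO-Im replicate 1.

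Promoters of this list were searched for the STAT letters TTCNNNGAA and the C/EBP letters TTNNGNAA. The STAT letters were found in 6 of 21 (28.6%, against 7.42% of tested genes) and the C/EBP letters in 15 of 21 (71.4% against 34.9%). Saa3, Orm2, Orm3, Lcn2 and Serpina3n held the C/EBP letters and not the STAT letters in these 250 bases. Of 24 plasma proteins outside the acute phase 3 rose and none fell, among them Serpina6, the corticosteroid-binding globulin, which climbed from 7.18, 6.54 and 8.60 to 9.35, 10.86 and 11.45 (3.11 ± 0.62, adjusted p = 0.017). Albumin (Alb) differed by 0.07 (adjusted p = 0.601). Complement and coagulation had 6 of 33 higher and 3 lower: Klkb1, Mbl2, Proc and C8g rose by 1.27, 1.06, 0.52 and 0.51, and C4bp, an inhibitor of complement, fell by 0.64. Only the rise of Mbl2 and the fall of C4bp among these 5 held whichever array was left out.

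**Figure D3:**
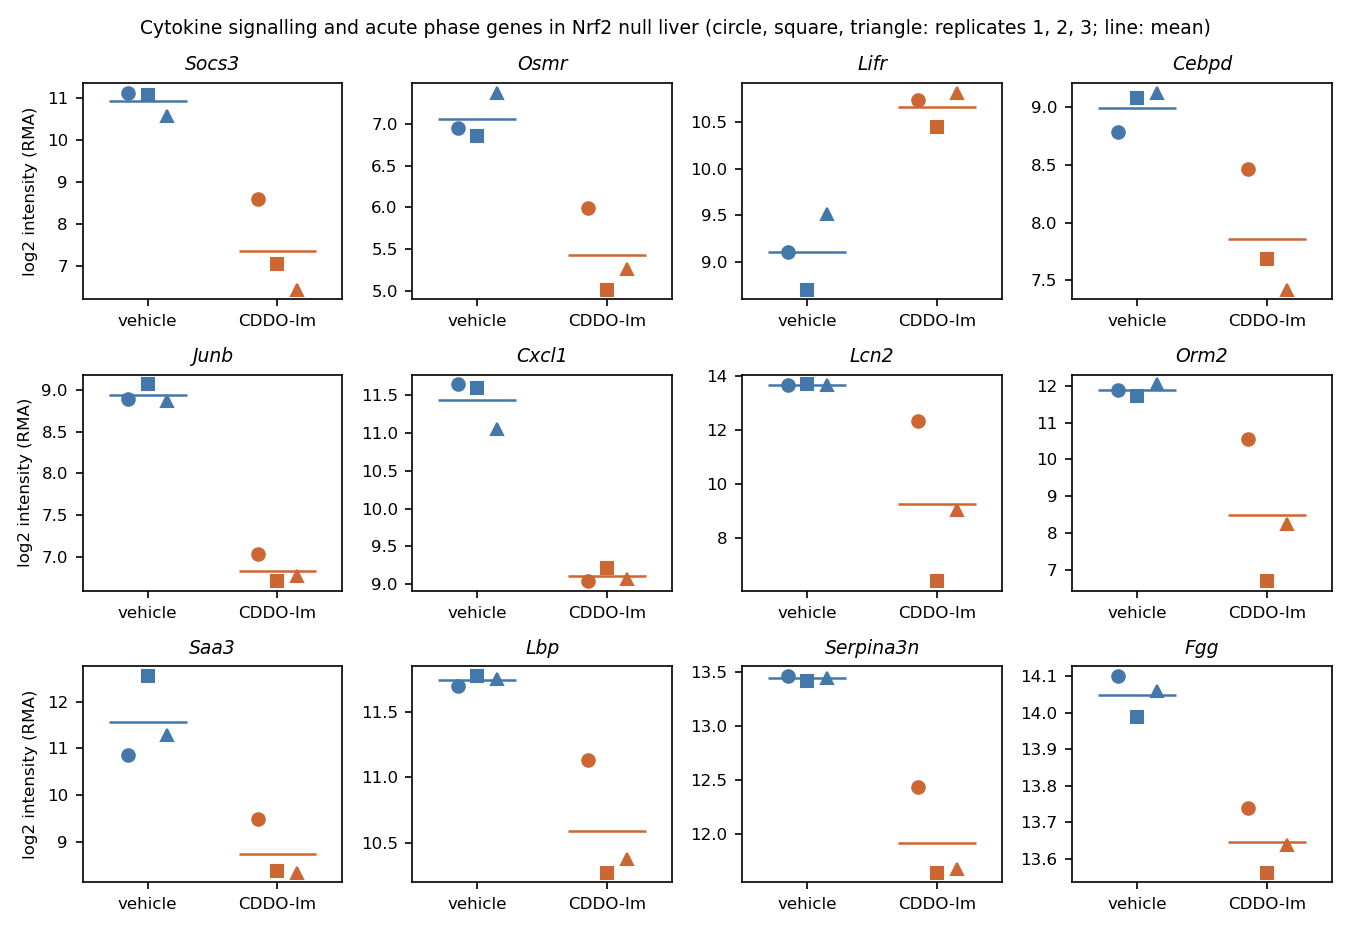
Log2 intensity of 12 cytokine signalling and acute phase genes in each Nrf2 null array, blue for vehicle and orange for CDDO-Im, with circle, square and triangle for replicates 1, 2 and 3 and a line at the group mean. Each panel has its own axis, which does not start at 0. Lifr is the 1 gene of the 12 with CDDO-Im above vehicle, and replicate 1 (12.33 for Lcn2) is the highest CDDO-Im array in the 6 acute phase panels.

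Of 22 chemokines 1 fell and 2 rose, with a median of 0.01. Over all genes 2.32% were called lower and 3.58% higher, the shares to set beside each list of this paragraph. The count of falls depends on the probe set chosen for Cxcl14. That probe set, which averaged 6.51, differed by -0.93 and was not called. Its other probe set, which averaged 6.49, differed by -3.39 (limma over every probe set, adjusted p = 0.0352). Cxcl1, which draws neutrophils, read 11.64, 11.60 and 11.05 with vehicle and 9.04, 9.22 and 9.08 with CDDO-Im, a 4.97-fold fall (-2.31 ± 0.17, adjusted p = 0.000232). The group ranges were separated by 1.83 log2 units, and the call held whichever array was left out. The other probe sets of Cxcl1 differed by -4.66 and -3.42. Cxcl9, which interferon induces, rose by 0.88 and Ccl27a by 1.0, and Ccl6 differed by -1.48 (adjusted p = 0.078). Immediate early genes had 4 of 23 lower, Junb by 2.10, Egr1 by 1.64, Zfp36 by 0.91 and Fos by 0.60, and Junb went from 8.88, 9.06 and 8.87 to 7.03, 6.71 and 6.77. None of these 4 passed without CDDO-Im replicate 3, and 1 did without vehicle replicate 1 or CDDO-Im replicate 2. NF-kB subunits and feedback genes had 1 of 17 lower, Icam1 by 0.62, and 1 higher, Sod2 by 0.37. Interferon response genes had 2 of 24 higher, Usp18 by 1.44 and Bst2 by 0.80, with none lower and a median of 0.27. For 10 of the 24 the CDDO-Im arrays all lay above the vehicle arrays, against 11.6% of all genes. For 0 they all lay below, against 11.4%. The interferon list had 0 higher without CDDO-Im replicate 3 and 1 without vehicle replicate 1, vehicle replicate 2 or CDDO-Im replicate 1. The NF-kB list had 0 called without vehicle replicate 1, vehicle replicate 2, CDDO-Im replicate 2 or CDDO-Im replicate 3. Beside these stand the neutrophil markers, of which 2 of 10 fell, S100a8 by 1.27 and S100a9 by 0.95. The other 8 were not called and differed by -0.16 (Csf3r) to 0.21 (Cxcr2). S100a8 lay below the array median on 4 of the 6 arrays, at 4.54 to 4.66 with CDDO-Im, so its size is uncertain. The summed level of the neutrophil markers was 10.10 to 10.34 (log2) with vehicle and 10.02 to 10.10 with CDDO-Im, and their part in the fall of Cxcl1, Lcn2 and Saa3 was not tested.

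Of 27 Nrf2 target genes 7 rose in livers without Nrf2 and 1 fell, with a median of 0.17. Nqo1, the quinone reductase used as a readout of Nrf2, read 4.99, 4.70 and 4.82 with vehicle and 4.89, 4.90 and 4.86 with CDDO-Im (0.04 ± 0.08, adjusted p = 0.842). Aox1, an aldehyde oxidase, rose from 5.77, 6.62 and 5.79 to 7.81, 8.29 and 8.02 (1.98 ± 0.27, adjusted p = 0.0057). Gclc, which starts glutathione synthesis, rose by 1.23, Me1 by 0.77, Cbr1 by 0.69, Blvrb by 0.64 and Tkt by 0.55. Srxn1, which repairs peroxiredoxins, went from 8.19, 8.30 and 8.16 down to 7.64, 7.47 and 7.69 (-0.62 ± 0.07, adjusted p = 0.004). The fall of Srxn1 and the rise of Aox1 held whichever array was left out, and the number of rising members was 1 without vehicle replicate 1, 2 without vehicle replicate 2 or CDDO-Im replicate 2 and 1 without CDDO-Im replicate 3.

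Among enzymes that conjugate foreign compounds, 8 of 20 glutathione transferases rose and none fell, with a median of 0.61. Gsta3 read 7.68, 7.12 and 8.62 with vehicle and 11.42, 11.34 and 11.20 with CDDO-Im (3.51 ± 0.60, adjusted p = 0.011). Gsta2 read 4.76, 4.96 and 4.54 against 7.80, 8.81 and 7.58, from below the array medians, so its size is uncertain (3.31 ± 0.41, adjusted p = 0.0041). Gsto1, Gstm1 and Gsta4 rose by 1.72, 1.34 and 1.27. Of the 18 promoters in this list 4 held TGACNNNGC, the core letters of the antioxidant response element (22.2% against 13.5% of tested genes). In glucuronidation and sulfation 9 of 19 rose and none fell, with a median of 0.66. Ugt2b1 averaged 10.42 ± 0.18 against 12.20 ± 0.22 (SD, n = 3), with no overlap (1.78 ± 0.20, adjusted p = 0.004). Ugt2a3, Ugt2b34 and Ugp2, which makes UDP-glucose, rose by 1.59, 1.32 and 1.27, and Ugt3a2 by 0.69. Ugdh, which oxidises UDP-glucose to UDP-glucuronate, differed by 0.66 (adjusted p = 0.124). Counts of both lists fell to 4 and 5 without vehicle replicate 1, 5 and 5 without vehicle replicate 2, 4 and 5 without CDDO-Im replicate 2 and 2 and 2 without CDDO-Im replicate 3.

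Of 40 cytochrome P450 genes and partners 12 rose and 1 fell, with a median of 0.48. Cyp2c50 read 7.71, 7.70 and 7.86 with vehicle and 10.53, 10.73 and 10.65 with CDDO-Im, a 7.36-fold rise (2.88 ± 0.51, adjusted p = 0.0114). Cyp2c54 and Cyp2c29 rose by 3.10 and 2.45, and the call of Cyp2c29 held whichever array was left out. Cyp1a2, a target of the aryl hydrocarbon receptor, rose by 1.28 ± 0.17 (adjusted p = 0.005), and Cyp4f14 and Cyp4v3 by 2.39 and 1.12. Flavin monooxygenases, carboxylesterases and aldehyde enzymes had 9 of 26 higher, none lower and a median of 0.63. The carboxylesterase Ces1d read 7.31, 7.35 and 8.02 against 9.88, 11.01 and 11.23 (3.15 ± 0.64, adjusted p = 0.0181), and Ces1f read 5.09, 5.0 and 5.01 against 6.68, 8.58 and 10.32. The vehicle values of Ces1f lie below the array medians and its CDDO-Im values spread over 3.64 log2 units. Aox3 and Aldh3a2 rose by 2.42 and 2.04. Cyp2c, Ces1 and Ugt2b genes are close paralogs, and probe sets may share signal between them. The counts were 5 and 3 without vehicle replicate 1, 8 and 5 without vehicle replicate 2, 5 and 3 without CDDO-Im replicate 2 and 3 and 1 without CDDO-Im replicate 3.

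Transporters had 9 of 26 higher, none lower and a median of 0.37. The bile acid importer Slc10a1 rose by 0.73, the organic anion importers Slco1a1 and Slco1b2 by 1.14 and 0.62, and Abcb11, the bile salt export pump, by 0.95. Bile acid synthesis and its FXR axis had 5 of 21 higher and 2 lower: Akr1c6 and Cyp27a1 rose by 1.38 and 1.11, and Fgfr4, the receptor of the gut hormone that restrains synthesis, fell by 0.44. Cyp7a1, the rate-limiting enzyme, differed by 1.49 and did not pass (adjusted p = 0.257). Cyp27a1 alone of those named in these 2 lists held its call whichever array was left out. The numbers of rising transporters and bile acid genes were 1 and 3 without vehicle replicate 1, 3 and 3 without vehicle replicate 2, 2 and 2 without CDDO-Im replicate 2 and 0 and 1 without CDDO-Im replicate 3.

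**Figure D4:**
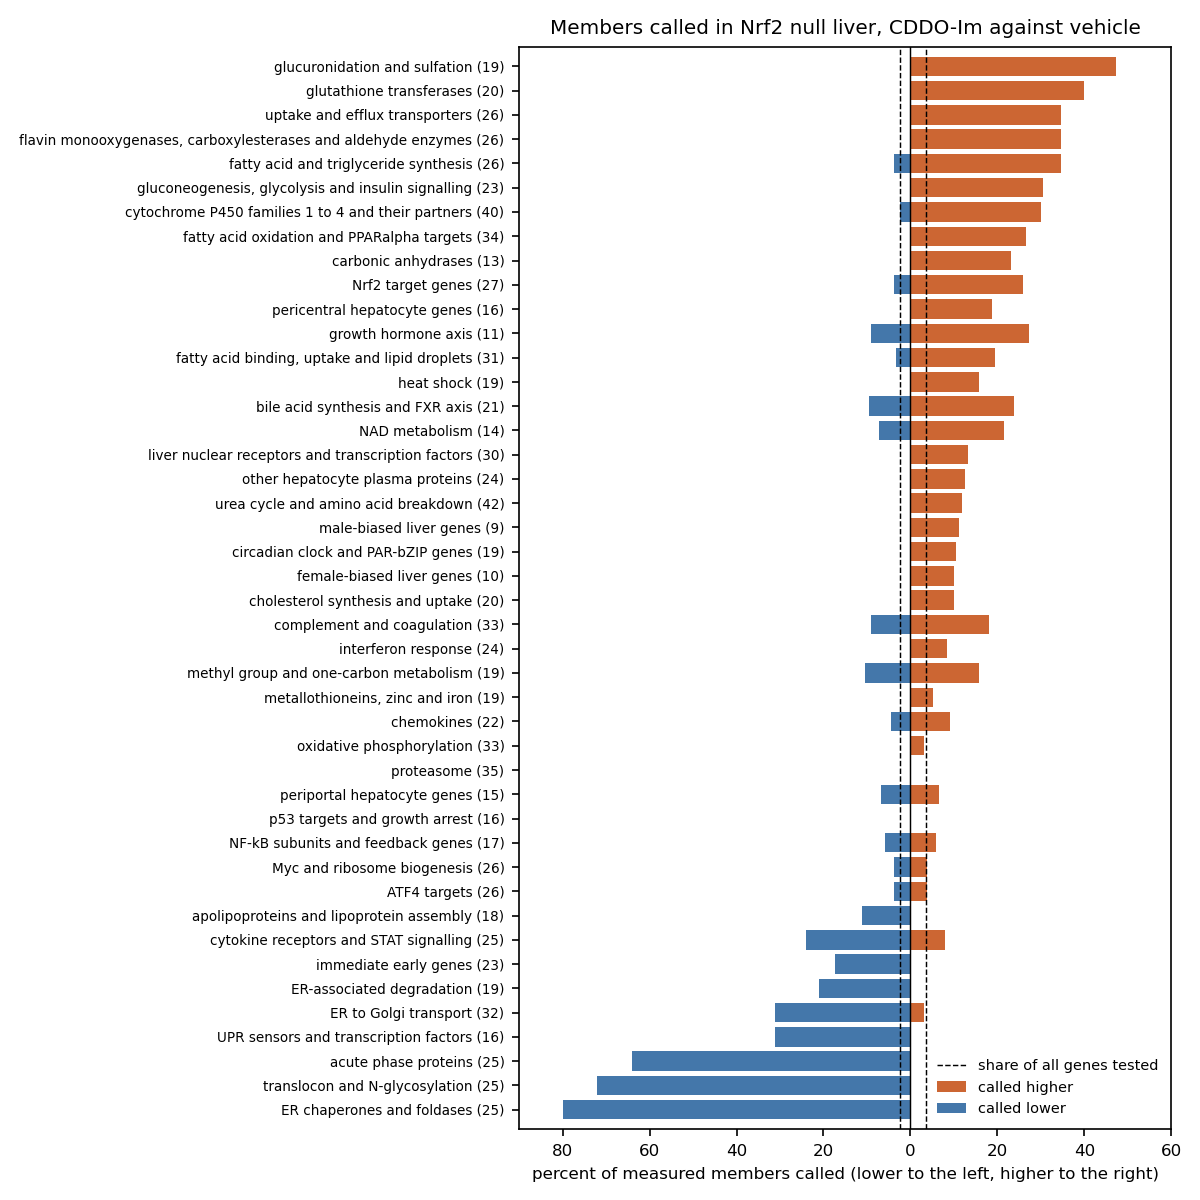
Percent of the measured members of 44 gene lists that were called lower (blue, to the left) or higher (orange, to the right) in Nrf2 null liver, with the number of members in brackets. Dashed lines mark the share of all genes called, 2.32% lower and 3.58% higher. ER chaperones (20 of 25) and translocon genes (18 of 25) reach farthest to the left, and glucuronidation and sulfation (9 of 19) farthest to the right.

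Called members of the lipid lists were mostly higher. Fatty acid oxidation and targets of PPARalpha, the receptor that drives the fasting response, had 9 of 34 higher, none lower and a median of 0.26. Ppara itself read 9.03, 9.61 and 9.93 with vehicle and 10.60, 10.58 and 11.05 with CDDO-Im (1.22 ± 0.20, adjusted p = 0.0106). The acyl-CoA thioesterases Acot1 and Acot3 and the peroxisomal thiolase Acaa1b rose by 2.96, 2.35 and 2.25, and Hadh and Decr2 by 1.0 and 0.98. Cyp4a14, a classical PPARalpha target, differed by -0.94 (adjusted p = 0.415). Fatty acid and triglyceride synthesis had 9 of 26 higher and 1 lower, with Elovl5 (1.07 ± 0.16, adjusted p = 0.0077), Dgat2, Lpin2 and Elovl2 up by 1.07, 0.90, 0.84 and 0.54. Fatty acid binding, uptake and lipid droplets had 6 of 31 higher, among them Fitm2, Cd36 and Slc27a2 by 0.93, 0.76 and 0.56, and 1 lower, Fabp4. The counts of rises in these 3 lists were 1, 2 and 0 without CDDO-Im replicate 3 and 3, 2 and 2 without vehicle replicate 1. Without CDDO-Im replicate 2 they were 3, 5 and 4, and without vehicle replicate 2 they were 5, 5 and 6.

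Glucose metabolism had 7 of 23 higher and none lower, with a median of 0.28. G6pc, which releases glucose from its phosphate, read 9.54, 9.65 and 8.44 with vehicle and 10.89, 11.50 and 11.27 with CDDO-Im (2.01 ± 0.39, adjusted p = 0.0162). Pygl, the glycogen phosphorylase, rose by 1.55, Gckr by 1.23, the glucose transporter Slc2a2 by 0.99 and the glucagon receptor Gcgr by 0.65. Pck1, the other control point of glucose output, differed by 0.04 (adjusted p = 0.879). The count was 2 without vehicle replicate 1, 3 without vehicle replicate 2 or CDDO-Im replicate 2 and 0 without CDDO-Im replicate 3.

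Methyl group metabolism held genes that moved in opposite directions. Over all genes 3.58% were called higher and 2.32% lower. Inmt and Gamt, which makes creatine, rose by 3.97 and 2.01, Shmt1 rose by 0.54, and Nnmt and Tpmt fell by 5.39 and 0.32, so that 3 of 19 were higher and 2 lower. The fall of Tpmt reversed to 0.01 when a gene's probe sets were averaged. Gamt read 8.01, 8.58 and 9.03 with vehicle and 10.12, 10.49 and 11.02 with CDDO-Im. In the related NAD list 3 of 14 rose, Afmid by 1.86, Sirt3 by 0.74 and Nmnat1 by 0.45, and Nmnat3 fell by 0.28 from values below the array medians. Of 13 carbonic anhydrases 3 rose, Car3, Car5a by 1.35 and Car14 by 0.83. None of these 3 lists kept a call without CDDO-Im replicate 3.

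The growth hormone axis had 3 of 11 higher and 1 lower. Over all genes 3.58% were called higher and 2.32% lower, the shares to set beside each list of this paragraph. Igfals, the hepatic subunit that carries IGF1 in plasma, read 8.76, 8.93 and 9.23 with vehicle and 10.26, 10.51 and 10.84 with CDDO-Im (1.57 ± 0.22, adjusted p = 0.0067). Ghr, the growth hormone receptor, and Igfbp3 rose by 1.21 and 0.91. Socs2, its feedback inhibitor, differed by 1.22 (adjusted p = 0.081). The fall of Cux2 by 0.62 turned to 0.16 when probe sets were averaged. Male-biased and female-biased liver genes had 1 of 9 and 1 of 10 higher and none lower. Among nuclear receptors and liver transcription factors 4 of 30 rose, Ppara, the xenobiotic receptor Nr1i3 by 0.77, Cebpa by 0.59 and the glucocorticoid receptor Nr3c1 by 0.58. Clock genes had 2 of 19 higher, Dbp by 1.04 and Hlf by 0.53. For 10 of 19 cytosolic heat shock genes the CDDO-Im arrays all lay above the vehicle arrays, against 11.6% of all genes. For 0 they all lay below, against 11.4%. Of these 19 genes 3 were called higher, Hsph1 by 1.42, Dnaja1 by 0.80 and Hspa8 by 0.72. Of all these, Igfals alone held its call whichever array was left out.

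The remaining lists had few called members, where 3.58% of all genes were called higher and 2.32% lower. Urea cycle and amino acid breakdown had 5 of 42 higher, with Prodh2 up by 0.93 ± 0.13 (adjusted p = 0.0057), and pericentral hepatocyte genes 3 of 16, Cyp1a2, Cyp27a1 and Lect2 by 0.48. For 18 of the 42 and 9 of the 16 the CDDO-Im arrays all lay above the vehicle arrays, against 11.6% of all genes. For 1 and 0 they all lay below, against 11.4%. Periportal hepatocyte genes had 1 of 15 higher, Etnppl by 1.97, and 1 lower, Cdh1 by 0.86. Cholesterol synthesis had 2 of 20 higher, Stard4 by 0.77 and Sc5d by 0.59, and apolipoproteins 2 of 18 lower, Apoa4 by 0.53 and Apoc2 by 0.49. Oxidative phosphorylation had 1 of 33 called, Sdhb up by 0.73, although for 19 of the 33 the CDDO-Im arrays all lay above the vehicle arrays, against 11.6% of all genes. The metallothionein, zinc and iron list had 1 of 19 higher, Id1 by 1.08, ribosome biogenesis 1 of 26 higher and 1 lower, and p53 targets 0 of 16 by limma, with 5 at an unadjusted p under 0.05, against 3528 of all 18193 genes. Without CDDO-Im replicate 1 the cholesterol list had 1 member higher and 5 lower, and the urea cycle list had 14 higher without wild type vehicle replicate 3 but 1 without Nrf2 null vehicle replicate 1, vehicle replicate 2, CDDO-Im replicate 2 or CDDO-Im replicate 3.

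The question left was whether these effects had another size where Nrf2 was present. The 2 comparisons share no array, only the estimate of the spread. Of the 1074 genes called in Nrf2 null liver, 980 (91.2%) differed in the same direction in wild type, against 63.0% of all genes tested, and 148 (13.8%) were called there in the same direction. Those 148 were 44.6% of the 332 genes called in wild type, where 1.82% of genes were called, 0.978% higher and 0.846% lower. The difference between the genotypes itself was called for 25 genes (0.137%), 7 of them among the 1074. All 20 of the largest rises and all 20 of the largest falls had the same sign in wild type. The median of the rises was 2.92 in Nrf2 null and 1.70 in wild type, and that of the falls -2.61 and -2.14. Without wild type vehicle replicate 3 the wild type medians were 2.43 and -2.71, and all 40 were called there. These 40 genes were selected on their size in Nrf2 null liver, and the difference between genotypes was called for Cxcl1 alone. In the 117 secretory genes the median was -0.64 in Nrf2 null and -0.45 in wild type, with 57 and 22 falls, and the difference between genotypes was called by limma for 0, with 7 at an unadjusted p under 0.05. Wild type vehicle replicate 3 stood near the CDDO-Im arrays in these genes. The same array had a summed level of pancreatic acinar markers of 14.25 (log2), against 10.27 and 10.31 in wild type vehicle replicates 1 and 2. The part of acinar RNA in its position was not tested. The summed level of the chaperones was 16.35, 16.35 and 15.47 (log2) in wild type with vehicle and 15.06, 15.13 and 15.15 with CDDO-Im. Without that array the wild type median was -0.66 with 82 falls, and without wild type vehicle replicate 1 or 2 it was -0.35 or -0.33 with 1 fall. Without either of wild type CDDO-Im replicates 2 and 3 there were 2 falls. Over all genes, the wild type count of 332 was 1385 without wild type vehicle replicate 3, and 104 and 117 without wild type vehicle replicates 1 and 2. It was 134 and 156 without wild type CDDO-Im replicates 2 and 3.

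Cxcl1 was the largest fall with a called difference between genotypes. Its wild type arrays read 9.73, 9.59 and 9.14 with vehicle and 9.19, 8.97 and 9.0 with CDDO-Im (-0.43 ± 0.17, adjusted p = 0.265), and the wild type effect minus the Nrf2 null effect was 1.88 ± 0.24 (adjusted p = 0.0071). The 3 Nrf2 null vehicle arrays, at 11.05 to 11.64, stood above the other 9. Srxn1 moved in opposite directions, up by 2.19 in wild type (8.24, 8.2 and 8.18 to 10.44, 10.37 and 10.39) and down by 0.62 in Nrf2 null, a difference of 2.81 ± 0.10 (adjusted p = 8.7e-08). Cbr1, Blvrb and Tkt rose in both genotypes and by 2.03, 1.60 and 1.12 more in wild type. Sc5d, an enzyme of cholesterol synthesis, rose by 0.59 in Nrf2 null and differed by -0.53 (adjusted p = 0.0535) in wild type. Lgr4, a receptor for R-spondins, rose by 0.26 in Nrf2 null and fell by 0.36 in wild type, and its Nrf2 null call was lost in 10 of 12 cases in which 1 array was left out. Of the 27 Nrf2 targets, 22 rose in wild type and the difference between genotypes was called for 12. G6pc (-0.02 in wild type), Ppara (-0.14), Lifr (0.16) and Elovl5 (0.05) did not pass in wild type, and for these 4 the difference between genotypes did not pass either (adjusted p = 0.352, 0.167, 0.155 and 0.188). Their wild type values include wild type vehicle replicate 3, without which the wild type count went from 332 to 1385. A lack of response in wild type can therefore not be read from them. The Nrf2 null rise of Lifr also rests on the chosen probe set.

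**Figure D5:**
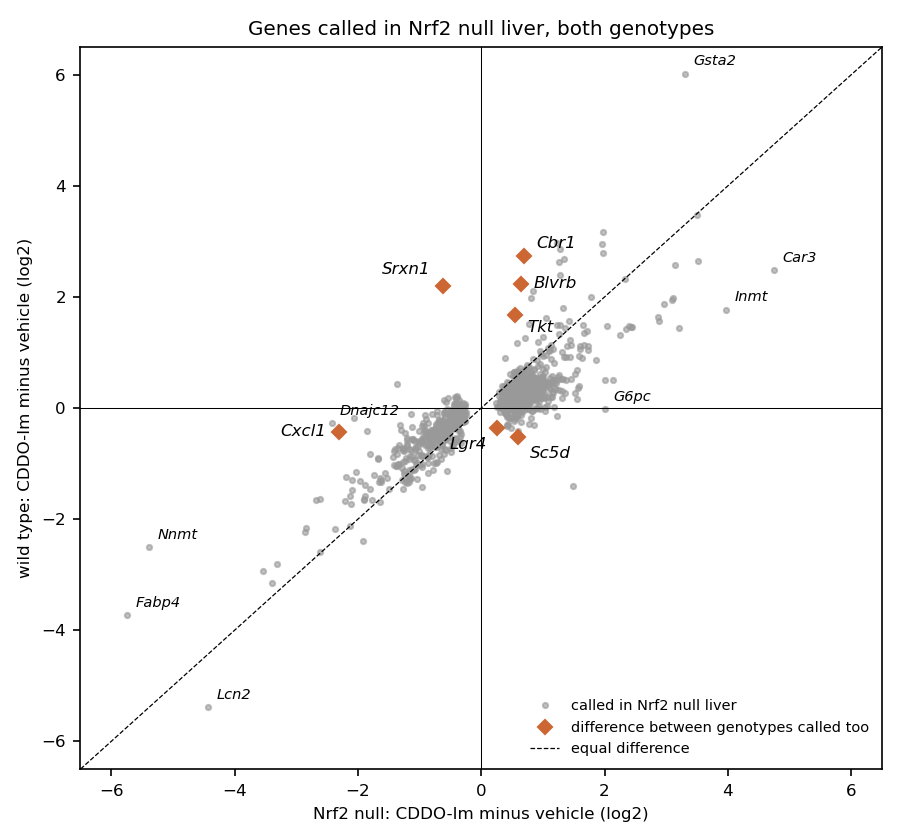
Difference between CDDO-Im and vehicle (log2) in Nrf2 null liver (horizontal axis) and wild type liver (vertical axis) for the 1074 genes called in Nrf2 null liver. Grey points are these genes, orange diamonds the 7 for which the difference between genotypes was called too, and the dashed line marks equal differences. Srxn1 lies at -0.62 and 2.19, and most points share the sign of both axes.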

How the data were processed

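Gene expression was measured on 12 arrays of male mouse liver, 3 for each of 4 groups. The deposited values are log2 intensities summarised by RMA, per the submitters' processing notes, which give no version. No scanner files or detection calls were used here, so detection could not be judged. The number of arrays, 3 for each group, limits the precision. Of 45101 probe sets, 64 were controls, 34945 named 1 gene, 932 named several and 9160 were unnamed here, and 34741 were matched by Entrez identifier, with 0 symbols changed. Each of 18193 genes was represented by whichever of its single-gene probe sets was brightest on average over all arrays, without a filter on low signal. limma 3.58.1 in R 4.3.3 (statmod 1.5.0) fitted 4 group means over all 12 arrays (8 residual and 3.8078 prior degrees of freedom), with two-sided moderated tests and Benjamini-Hochberg adjustment over all genes. Standard errors are those of the model.

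Genes eligible to be named were the 20 largest called rises and falls without overlap, the 5 called members of smallest adjusted p and the largest uncalled member of each list, the marker and Nrf2 check genes, chemokine, cytokine and ER list members, and up to 8 genes each way with a called genotype difference. The text names a part of these 440 genes. Lists were counted, not tested. The members and lists were chosen with earlier results of these data known. On simulated data over 18193 genes for the Nrf2 null comparison, 85 of 100 changes of 1 log2 unit and 100 of 100 of 2 units were recovered, and 14 of 199 calls were false. Each gene was simulated with independent normal noise. Shifts that many genes share on an array were not simulated, so these rates may not hold for the real arrays. Alternatives varied the arrays, block, probe set rule, signal filter, scaling, array weights, prior and thresholds.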

Additional observations from a re-analysis of the deposited data

Results flagged for a closer look

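The effect of CDDO-Im differed between genotypes for 7 of the genes called in Nrf2 null liver, by limma's test of the difference itself. Wild type effect minus Nrf2 null effect was 2.81 (log2) for Srxn1, 2.03 for Cbr1, 1.60 for Blvrb and 1.12 for Tkt, all known Nrf2 targets. It was 1.88 for Cxcl1, whose Nrf2 null vehicle arrays stood above all others. It was -1.12 for Sc5d and -0.62 for Lgr4, for which the wild type value lay below 0 and the Nrf2 null value above.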

How the results depend on the processing

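In Nrf2 null liver the 1074 calls (652 higher, 422 lower) became 1897 (1161, 736) with array weights, 75 (43, 32) when a 1.2-fold minimum was tested and 97 (60, 37) at an adjusted p under 0.01. With 1 array left out they ranged from 97 to 1615 (higher 56 to 900, lower 41 to 715). Comparing the 6 arrays alone, averaging probe sets, genes above the median signal, median centring, quantile normalization, a trended and robust prior, every probe set and leaving out both arrays with acinar transcripts gave 842 to 1501. The arrays with acinar transcripts are Nrf2 null vehicle replicate 2 and wild type vehicle replicate 3. Averaging a gene's probe sets reversed Cux2 to 0.16 and Tpmt to 0.015, and the cause was not tested.

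The wild type count of 332 (178 higher, 154 lower) was 110 (79, 31) for its arrays alone, 2023 (815, 1208) with array weights, 81 (62, 19) with a 1.2-fold minimum, 1293 (463, 830) without both arrays with acinar transcripts, 545 (330 higher) over every probe set and 109 (76, 33) at an adjusted p under 0.01. Its lower genes numbered 100 with median centring. With 1 array left out the count was 104 to 1385 (higher 72 to 504, lower 32 to 881).

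The 25 genotype differences (23 higher, 2 lower in wild type minus Nrf2 null) became 89 (48, 41) with array weights, 16 (0 lower) with a 1.2-fold minimum, 39 (35, 4) without both arrays with acinar transcripts, 50 (46, 4) over every probe set and 15 (15, 0) at an adjusted p under 0.01. The lower genes numbered 1 with averaged probe sets, median centring or a trended and robust prior. With 1 array left out the count was 15 to 46 (higher 15 to 36, lower 0 to 10).

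Same-numbered vehicle and CDDO-Im arrays deviated together with r = 0.07, 0.07 and 0.28 in Nrf2 null and -0.01, 0.25 and 0.19 in wild type, so the numbers were not taken to pair the samples. With the replicate block 1384 genes were called in Nrf2 null (847 higher, 537 lower), 271 fell in wild type and 34 differed between genotypes, 8 of them lower.

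Over the alternatives run, the 208 called genes among the 440 eligible to be named kept direction and call in 3506 cases, kept direction but lost the call in 1058 and reversed in 2. Values near or below the array median have uncertain size, and detection could not be judged.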
